A study of Mus musculus with 4 samples.

Results

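The S phase and mitotic cell cycle genes described here are 56 of the 41029 genes in the deposited table, found by gene symbol. They comprise 26 replication genes, from Mcm2 to Lig1, and 30 genes of G2 and mitosis, from Mki67 to Ndc80. RNA was sequenced from bone marrow mesenchymal stem/progenitor cells of C57BL/6 mice, plastic-adherent stroma able to become bone, fat or cartilage. They were grown in MesenCult medium with its supplement and replated near confluency. Of the 4 libraries, 2 are labelled Tet2-/- and 2 wild type, all from cultured cells of the same strain, and the design compares the genotypes. The labels give no allele or driver for the Tet2 deletion, and leave it unsaid if a group's libraries had separate animals or cultures behind them; p-values measure only the spread between these samples. Levels are in FPKM, a read count scaled by gene length and by the library's total.

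Before each division a cell loads the MCM helicase onto replication origins, fires it, copies its DNA in S phase, and then condenses and separates its chromosomes in mitosis. The genes for these steps are switched on in turn, the replication genes mainly by E2F factors at the border of G1 and S phase, and the G2 and mitosis genes later by the MuvB complex with MYBL2 and FOXM1, which acts through a promoter element called the cell cycle homology region. In resting cells both sets are held down, so their messenger RNA is widely read as a sign of proliferation. Bone marrow stromal cells divide little in the marrow and start to cycle when they are placed in culture. A bulk library cannot tell fewer cycling cells from less RNA per cycling cell.

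The libraries held 10096878 to 21337246 reads over genes. Tet2 stood at 11.6 and 9.70 FPKM in the libraries labelled Tet2-/- and at 7.01 and 8.39 FPKM in wild type, so the level does not bear out the label, and a gene total cannot show a missing exon. They are therefore called knockout-labelled 1 and 2. Of 12 stromal markers, 11 reached a mean of 1 FPKM. Their summed level was 6605 FPKM in knockout-labelled 1 and 25270.0 in knockout-labelled 2, beside 13500.0 and 12950.0 in wild type. It was mostly the collagen genes Col1a1 (2628 and 13290 FPKM in knockout-labelled 1 and 2) and Col1a2 (3120 and 11480). Other markers went either way: Thy1 stood at 130.6 and 8.27 FPKM there, and Nt5e at 9.46 and 61.1. Eng, 1 of the 12 stromal markers, stood at 1.53 and 1.59 FPKM in the knockout-labelled libraries beside 110 and 102. It was the 1 gene called lower among all genes tested (adjusted p = 0.0237, limma). The knockout-labelled libraries stood apart from each other: the median absolute difference between them was 0.35 on the log2(FPKM + 1) scale over 12344 genes tested, compared with 0.08 between the wild-type libraries. Macrophage markers, which could bring their own cycling cells, summed to 79.9 and 128.8 FPKM in knockout-labelled 1 and 2 and to 122.9 and 118.5 in wild type, with 10 of 12 at a mean of 1 FPKM or more. The largest part of that sum was Lyz2, at 36.9 and 66.8 FPKM beside 66.0 and 63.1. Single markers went either way. Ptprc, Csf1r, Adgre1 and Tyrobp lay above wild type in both knockout-labelled libraries (background 29.4%), and Cd68, C1qb and C1qc below it in both (background 24.8%). None of 8 erythroid, 8 granulocyte, 6 endothelial or 6 lymphoid markers reached a mean of 1 FPKM, and the globin genes Hba-a1, Hba-a2, Hbb-bs and Hbb-bt were listed at 0 in every library, as were Mpo, Ltf and Ngp of the granulocyte list. All 6 osteoblast markers reached a mean of 1 FPKM, and they summed to 3882 and 3750.0 FPKM beside 1793 and 1935 in wild type. That sum was mostly Spp1, at 3871 and 2528 FPKM. The osteoblast genes Sp7, Alpl and Ibsp stood far higher in knockout-labelled 2, at 1.87 and 180.6, 8.21 and 500.9, and 0.488 and 434.9 FPKM, beside 5.52 and 5.73, 6.75 and 6.82, and 5.17 and 4.95 in wild type. Of 5 adipocyte markers 2 reached a mean of 1 FPKM, and their sum of 195.1 and 38.8 FPKM beside 7.47 and 7.69 was mostly Lpl in knockout-labelled 1 (190.2), whereas Fabp4 stood at 4.58 and 21.2. The part of these other programmes in the cell cycle values was not tested.

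All 4 libraries held RNA of the cell cycle programme, and no member passed the test between the labelled genotypes. With 2 libraries against 2 this does not show that their levels are equal. The 56 levels summed to 2799 FPKM in knockout-labelled 1, 2346 in knockout-labelled 2, 2368 in wild type 1 and 2425 in wild type 2. Knockout-labelled 1 thus had the highest sum, and the other 3 libraries lay close together. By mean FPKM the median replication gene ranked at the 65.7th percentile of the genes tested and the median mitosis gene at the 76.6th percentile. Of the 56 members 55 passed the filter of a mean of at least 1 FPKM, and none of them passed limma's test at an adjusted p under 0.05, where 0.0162% of all genes tested did (0.0081% higher and 0.0081% lower). At an unadjusted p under 0.05 there were 4 higher members and 1 lower one, with a background of 17.1% of genes (8.84% higher and 8.29% lower). With voom, run on whole reads worked out from the FPKM, no member was called either. The smallest adjusted p among the members was 0.234, for Nusap1 (limma).

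The median difference of the members was wider between the knockout-labelled libraries than between the groups (0.07 on the log2 scale). In knockout-labelled 1, 43 of 55 members were above both wild-type libraries, compared with 47.6% of all genes tested, and 6 were below both, compared with 41.0%. In knockout-labelled 2, 24 were above both (background 47.7%) and 28 were below both (background 43.7%). Knockout-labelled 2 was lower than knockout-labelled 1 in 43 of 55 members, where 51.5% of all genes were lower, and the median difference between them was -0.35 on the log2 scale, compared with -0.02 over all genes tested. The wild-type libraries differed by a median of 0.04 in the same members. Without regard to sign, the median difference between the knockout-labelled libraries was 0.38 in the members, close to the 0.35 of all genes tested. A single library of each kind allows no test of these differences.

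**Figure D1:**
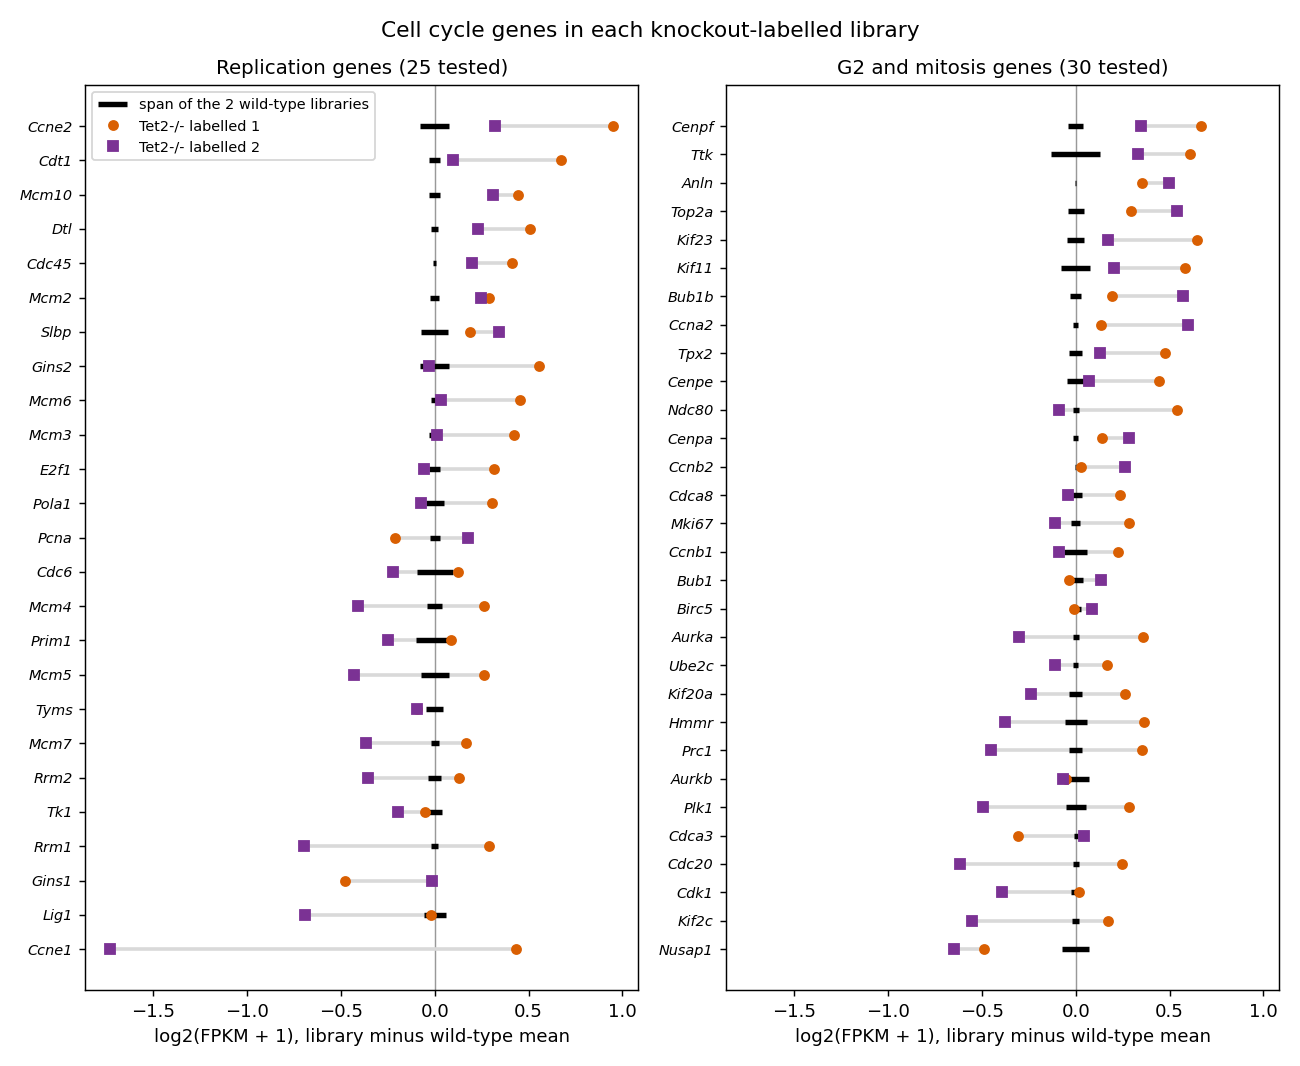
Each tested member is a row. Its level in each knockout-labelled library is plotted as log2(FPKM + 1) minus the wild-type mean (x axis), with a black bar for the span of the 2 wild-type libraries, and rows are ordered by the mean difference. Orange circles (knockout-labelled 1) lie to the right of the bar in 43 of 55 rows, and purple squares (knockout-labelled 2) to the left in 28.

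By median level, the order of the libraries was not the same for replication and mitosis genes. The median replication gene stood at 30.4 FPKM in knockout-labelled 1, 22.0 in knockout-labelled 2, 28.9 in wild type 1 and 28.3 in wild type 2. The median mitosis gene stood at 44.9, 39.1, 37.8 and 38.7 FPKM in the same order. For replication genes knockout-labelled 2 was thus the lowest library, whereas for mitosis genes it lay just above wild type. Against the wild-type mean, the median log2 difference of the replication genes was 0.29 in knockout-labelled 1 and -0.06 in knockout-labelled 2, and that of the mitosis genes was 0.26 and 0.00, with 0.03 and 0.03 over all genes tested. The level of the median mitosis gene minus that of the median replication gene was 0.55 and 0.80 on the log2 scale for knockout-labelled 1 and 2, beside 0.37 and 0.44 for wild type. The median gene need not be the same in each library, and the gene-by-gene medians against wild type differed little between the sets. In knockout-labelled 2, 9 of 25 replication genes were above and 14 below both wild-type libraries. Of 30 mitosis genes, 15 were above and 14 below (background 47.7% and 43.7%). Over both knockout-labelled libraries the median difference was -0.02 for replication genes and 0.08 for mitosis genes, compared with 0.03 for all genes tested. Without knockout-labelled 2 these medians moved to 0.29 and 0.26.

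Separation of the groups without overlap was counted in each direction. Both knockout-labelled libraries lay above both wild-type libraries for 20 of 55 members (8 of replication and 12 of mitosis), with a background of 29.4%, and below both for 4 members, Tyms, Gins1, Tk1 and Nusap1, with a background of 24.8%. The groups of these 24 members did not overlap, as in 54.2% of all genes tested. Without knockout-labelled 2 the higher count was 43, and without knockout-labelled 1 the lower count was 28, the counts of the single libraries given above. Without wild type 1 the lower count was 7. Leaving out a library can only keep or raise such counts, so they are no check of the pattern. In 21 members knockout-labelled 1 was above and knockout-labelled 2 below both wild-type libraries, a pattern that 14.6% of all genes showed, and in 2 members, Pcna and Cdca3, the order was the opposite (background 13.3%).

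Promoter windows divided the members by their role. The windows are those of RefSeq on build GRCm38.p6, from 250 bases before to 50 after a gene's start, and were available for 22 of 26 replication and 26 of 30 mitosis genes. The E2F-type letters searched on either strand were TTCCCGC, next TTGGCGC, then TTCGCGC and last TTGCCGC. One or more of them was found in 13 of the 22 replication genes (59.1%) and 4 of the 26 mitosis genes (15.4%), and in 10.9% of 27025 genes with a window. The cell cycle homology region, searched as TTTGAA and also as TTCGAA on either strand, was found in 4 replication genes (18.2%) and 22 mitosis genes (84.6%), and in 21.7% of all genes. The CCAAT box, bound by the factor NF-Y, was found in 63.6% of replication genes, 80.8% of mitosis genes and 41.1% of all genes. Matches to TTGGCGC and TTCGCGC can overlap each other. A match is a string of letters and does not show that a factor binds there.

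The windows below belong to members on which the results turn, with motif letters in capitals, printed 5′ to 3′ on the gene's own strand. Mcm6 (chr1:128359656-128359955, minus strand) is a licensing gene with 5 E2F-type matches. Top2a (chr11:99024140-99024439, minus strand) was above wild type in both knockout-labelled libraries and holds 4 cell cycle homology regions and 6 CCAAT boxes. Cdc20 (chr4:118437294-118437593, minus strand) differed most between the knockout-labelled libraries among mitosis genes and holds 1 and 2 of these. Ccne1 (chr7:38107441-38107740, minus strand) and Nusap1 (chr2:119618048-119618347, plus strand) are the members with the lowest log2 differences, and their windows held none of the motif letters searched, which says nothing of the factors themselves.
Mcm6: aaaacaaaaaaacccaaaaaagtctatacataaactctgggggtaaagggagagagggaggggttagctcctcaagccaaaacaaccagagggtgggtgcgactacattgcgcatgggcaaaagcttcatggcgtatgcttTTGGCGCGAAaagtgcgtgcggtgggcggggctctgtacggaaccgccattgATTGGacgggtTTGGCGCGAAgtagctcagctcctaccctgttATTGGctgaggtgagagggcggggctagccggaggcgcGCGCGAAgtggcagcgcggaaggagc
Top2a: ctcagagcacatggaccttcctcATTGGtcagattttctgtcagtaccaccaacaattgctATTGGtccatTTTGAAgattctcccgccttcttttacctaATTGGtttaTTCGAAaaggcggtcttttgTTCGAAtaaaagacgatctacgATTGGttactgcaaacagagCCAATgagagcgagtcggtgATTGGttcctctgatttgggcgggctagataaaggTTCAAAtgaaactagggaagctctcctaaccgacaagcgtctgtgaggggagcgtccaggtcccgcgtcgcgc
Cdc20: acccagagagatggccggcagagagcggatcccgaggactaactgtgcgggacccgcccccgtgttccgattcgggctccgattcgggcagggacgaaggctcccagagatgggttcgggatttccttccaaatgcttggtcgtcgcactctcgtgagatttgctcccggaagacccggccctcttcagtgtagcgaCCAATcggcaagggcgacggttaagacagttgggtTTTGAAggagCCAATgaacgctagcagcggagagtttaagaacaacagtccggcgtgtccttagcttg
Ccne1: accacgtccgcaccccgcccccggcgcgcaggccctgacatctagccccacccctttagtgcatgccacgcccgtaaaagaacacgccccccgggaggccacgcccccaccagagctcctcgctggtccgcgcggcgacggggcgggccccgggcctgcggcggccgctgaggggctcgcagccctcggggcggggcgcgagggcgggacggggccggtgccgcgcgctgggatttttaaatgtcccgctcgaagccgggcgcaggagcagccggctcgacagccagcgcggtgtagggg
Nusap1: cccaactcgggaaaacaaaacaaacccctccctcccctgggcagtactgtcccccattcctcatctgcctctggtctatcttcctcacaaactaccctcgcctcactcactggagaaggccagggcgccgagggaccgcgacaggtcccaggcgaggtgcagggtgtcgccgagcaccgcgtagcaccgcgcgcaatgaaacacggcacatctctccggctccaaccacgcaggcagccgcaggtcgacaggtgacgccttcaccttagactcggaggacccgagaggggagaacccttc

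**Figure D2:**
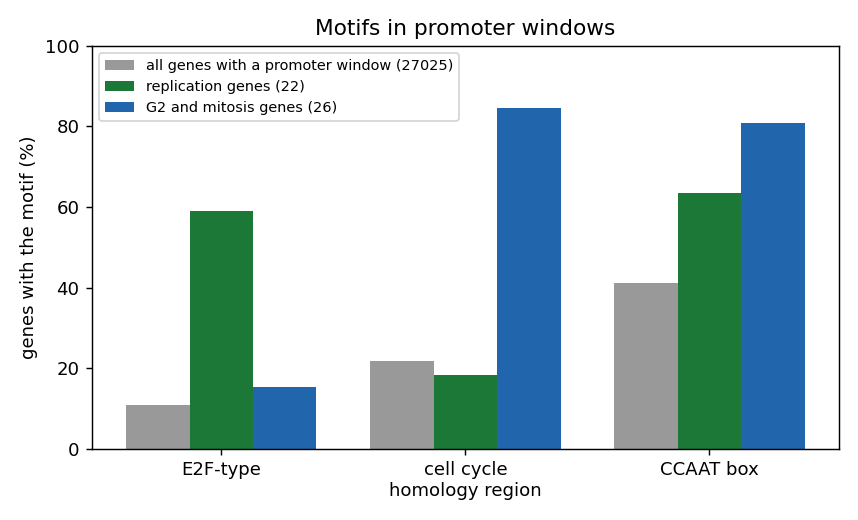
Bars give the percentage of genes whose promoter window holds each motif (y axis), for all 27025 genes with a window, 22 replication genes and 26 G2 and mitosis genes. E2F-type letters are most frequent in replication genes (59.1%) and the cell cycle homology region in mitosis genes (84.6%).

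Among the genes that license origins, all 8 were above both wild-type libraries in knockout-labelled 1 (background 47.6%). In knockout-labelled 2 there were 3 above and 4 below (background 47.7% and 43.7%). The 8 are the helicase subunit genes Mcm2 to Mcm7 and the loader genes Cdc6 and Cdt1. Mcm2 stood at 90.1 and 87.5 FPKM in knockout-labelled 1 and 2 and at 74.9 and 72.3 in wild type 1 and 2, without overlap (log2 0.27, SE 0.11, adjusted p = 0.325, limma). Mcm7 stood at 92.8 and 63.9 FPKM beside 83.8 and 81.3, and Mcm5 at 30.4 and 18.5 beside 26.5 and 23.9. For both genes the knockout-labelled libraries thus lay on opposite sides of wild type. Mcm3 stood at 71.4 and 53.4 FPKM beside 51.9 and 54.1, Mcm4 at 41.9 and 25.96 beside 33.8 and 35.7, and Mcm6 at 80.1 and 59.6 beside 57.5 and 59.1. The 6 subunits work as 1 ring, yet the difference between the knockout-labelled libraries ran from -0.04 for Mcm2 to -0.69 for Mcm5 on the log2 scale. Cdt1, which loads the ring, stood at 18.4 and 12.01 FPKM beside 11.4 and 10.9, and Cdc6, its partner, was the least abundant tested member, at 5.28 and 3.94 beside 5.16 and 4.39.

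The genes that turn the loaded helicase into an active one stood mostly higher in knockout-labelled 1. Mcm10 (ENSMUSG00000026669, chr2:4989714-5012791), needed to start the fork, stood at 15.6 and 14.1 FPKM beside 10.96 and 11.5 in wild type, without overlap (log2 0.38, SE 0.13, unadjusted p = 0.0488, adjusted p = 0.289, limma). It was the replication gene with the smallest p. Cdc45, a helicase cofactor gene, stood at 16.3 and 13.9 FPKM beside 12.1 and 11.9, also without overlap (log2 0.30, SE 0.14). Of the GINS subunits, Gins1 stood at 7.45 and 10.7 FPKM beside 10.8 and 10.8, and Gins2 at 10.8 and 6.84 beside 7.46 and 6.61. Gins1 was thus low and Gins2 high in knockout-labelled 1, although both proteins belong to 1 complex. The exons of Gins2 share 67.3% of their bases with exons of other genes on the opposite strand, mostly Gse1, and whether the counting used strand is not given in the sources used here.

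Among the genes of the fork itself, Pcna, the sliding clamp, stood at 68.4 and 90.1 FPKM in knockout-labelled 1 and 2 beside 80.9 and 78.0. It was the replication gene in which knockout-labelled 1 lay below and knockout-labelled 2 above both wild-type libraries. Pola1 and Prim1, which encode parts of the polymerase that primes synthesis, stood at 33.4 and 25.4, and at 28.0 and 22.0 FPKM, beside 25.8 and 27.7, and 24.5 and 28.3. Lig1, which joins the fragments of the lagging strand, stood at 27.3 and 16.8 FPKM beside 28.9 and 26.6, so that knockout-labelled 2 alone was low. Fen1, which trims the same fragments, was the 1 member under the filter, at 0.985 and 0.648 FPKM beside 0.530 and 0.728, from at least 35, 31, 12 and 29 reads. In GENCODE M21 84.2% of its exon bases overlap exons of other genes, mostly the antisense gene Gm10143, which itself stood at 0.484 and 0.215 FPKM beside 0.273 and 0.310. Its level is therefore uncertain.

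The genes that supply nucleotides were lower than both wild-type libraries in knockout-labelled 2 in 4 of 4 (background 43.7%). Rrm2, a subunit of ribonucleotide reductase and the most abundant replication gene, stood at 250.8 and 179.0 FPKM in knockout-labelled 1 and 2 beside 223.9 and 235.3. Its partner Rrm1 stood at 83.5 and 41.6 FPKM beside 67.1 and 68.9, with a difference of -0.99 between the knockout-labelled libraries on the log2 scale. Both subunits thus followed the order of the libraries seen in the whole list. Tyms, which makes thymidylate, stood at 27.5 and 27.5 FPKM beside 30.4 and 28.4, and Tk1, which salvages it, at 51.5 and 46.4 beside 54.9 and 51.9. These 2 genes lay below wild type in both libraries by small amounts (log2 -0.10, SE 0.12, and -0.12, SE 0.12; limma).

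The cyclin E genes, whose proteins drive entry into S phase with CDK2, held the widest differences in the whole list. Ccne1 (ENSMUSG00000002068, chr7:38097984-38107534 on GRCm38) stood at 41.0 FPKM in knockout-labelled 1 and 8.39 in knockout-labelled 2, beside 30.1 and 30.1 in wild type. It was 4.89-fold apart between the knockout-labelled libraries and the 1 member that differed at least 2-fold there on the log2(FPKM + 1) scale, where 12.5% of all genes did. The values rest on at least 566, 156, 265 and 466 reads in the same order, and the difference of the groups could not be told from the spread (log2 -0.65, SE 0.77, adjusted p = 0.684, limma). Ccne2 (ENSMUSG00000028212, chr4:11191351-11204779) stood at 18.8 and 11.8 FPKM beside 8.69 and 9.80, above wild type in both, with the highest log2 difference of the list (0.64, SE 0.26, adjusted p = 0.327, limma). In knockout-labelled 2 the order of the pair was reversed: Ccne2 was above Ccne1 in FPKM there, and below it in the other 3 libraries. In Ccne2 17.4% of exon bases overlap another gene, Ints8.

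Other genes of the border of G1 and S phase stood above wild type in knockout-labelled 1, and Dtl and Slbp did so in both knockout-labelled libraries. Dtl, which marks Cdt1 for destruction once replication starts, stood at 15.6 and 12.7 FPKM beside 10.8 and 10.5, without overlap (log2 0.37, SE 0.16, adjusted p = 0.337, limma). Slbp, which binds histone messenger RNA, stood at 45.8 and 51.2 FPKM beside 38.1 and 42.1, also without overlap. E2f1, a factor that activates the replication genes, stood at 19.3 and 14.8 FPKM beside 15.7 and 15.0, so its knockout-labelled libraries enclosed wild type.

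**Figure D3:**
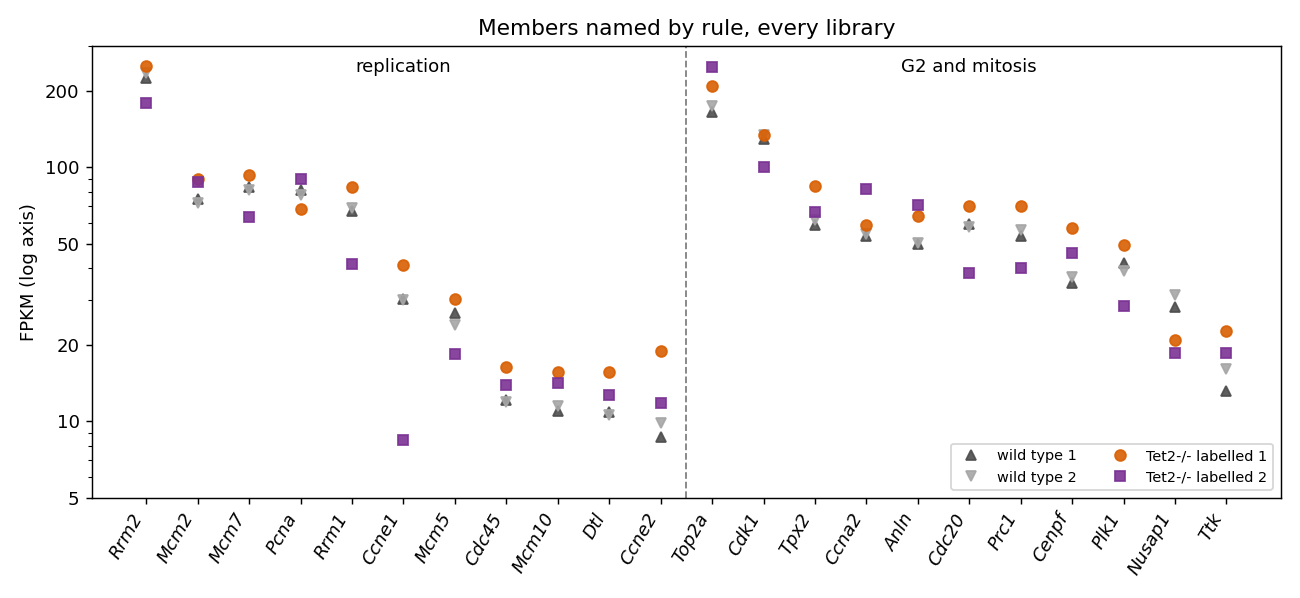
FPKM on a log axis (y) in each of the 4 libraries for the members picked by abundance, smallest p or widest replicate difference, with replication genes left of the dashed line and G2 and mitosis genes right of it. The wild-type triangles nearly coincide, Ccne1 in knockout-labelled 2 falls to 8.39 FPKM, and both knockout-labelled points lie above wild type for Top2a and below it for Nusap1.

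Among the mitosis genes, Top2a, which untangles DNA strands, was the most abundant. The gene (ENSMUSG00000020914, chr11:98992943-99024189) stood at 208.1 and 247.2 FPKM in knockout-labelled 1 and 2 beside 164.6 and 174.6 in wild type, without overlap (log2 0.42, SE 0.14, unadjusted p = 0.0442, adjusted p = 0.280, limma). Mki67, the gene of the proliferation antigen Ki-67, stood at 37.2 and 28.0 FPKM beside 29.8 and 30.9, so the group values overlapped. The difference of its groups was 0.09 on the log2 scale (SE 0.18).

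The genes of mitotic cyclins and their kinase differed in which library was highest. Ccna2, cyclin A2, stood at 59.2 and 82.1 FPKM beside 53.4 and 54.4, and Ccnb2, cyclin B2, at 37.4 and 44.2 beside 36.7 and 36.6. For both, knockout-labelled 2 was the highest library. Ccnb1, cyclin B1, stood at 56.4 and 45.1 FPKM beside 46.0 and 50.2, and their kinase Cdk1 at 133.2 and 99.7 beside 129.0 and 133.7. For these genes knockout-labelled 2 was the lowest library.

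Among the 6 genes of mitotic kinases, 4 were above both wild-type libraries in knockout-labelled 1 (background 47.6%). In knockout-labelled 2 there were 3 above and 2 below (background 47.7% and 43.7%). Plk1, a kinase of mitotic entry and cytokinesis, stood at 49.4 and 28.3 FPKM beside 41.9 and 38.8, and Aurka, a kinase of the spindle poles, at 44.2 and 27.7 beside 33.9 and 34.7. Both were high in knockout-labelled 1 and low in knockout-labelled 2. Ttk, a kinase of the spindle checkpoint, stood at 22.7 and 18.5 FPKM beside 13.2 and 16.0 (log2 0.47, SE 0.18, adjusted p = 0.308, limma), and Bub1b, which inhibits the anaphase-promoting complex, at 47.7 and 62.2 beside 42.4 and 40.6. These 2 checkpoint genes were above wild type in both libraries, whereas Bub1 (43.4 and 49.0 beside 43.4 and 45.7 FPKM) and Aurkb (33.8 and 33.4 beside 33.4 and 36.9 FPKM) overlapped it.

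Of the 6 genes of the kinetochore, by which chromosomes hold on to the spindle, and of the passenger complex, 3 were above both wild-type libraries and none was below both (background 29.4% and 24.8%). Cenpf (ENSMUSG00000026605, chr1:189640606-189688086) stood at 57.5 and 45.9 FPKM beside 34.8 and 36.9 (log2 0.51, SE 0.16, unadjusted p = 0.0333, adjusted p = 0.262, limma), the highest difference among mitosis genes. The motor gene Cenpe stood at 55.0 and 42.3 FPKM beside 38.8 and 41.6, and Cenpa, the histone variant of centromeres, at 45.6 and 50.4 beside 41.6 and 40.9. Ndc80, a subunit that grips microtubules, was above wild type in knockout-labelled 1 and below it in knockout-labelled 2, at 25.3 and 16.0 FPKM beside 16.9 and 17.3. Of the passenger complex genes, Birc5 stood at 28.9 and 31.0 FPKM beside 28.5 and 29.7, overlapping wild type. Cdca8 stood at 27.0 and 22.1 FPKM beside 23.3 and 22.2, above wild type in knockout-labelled 1 and just below it in knockout-labelled 2.

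Of the 9 genes of the spindle, its motors and cytokinesis, 8 were above both wild-type libraries in knockout-labelled 1 (background 47.6%). In knockout-labelled 2 there were 4 above and 5 below (background 47.7% and 43.7%). Anln (ENSMUSG00000036777, chr9:22332012-22389188), which organises the cleavage furrow, stood at 64.3 and 71.1 FPKM beside 49.9 and 50.2 (log2 0.43, SE 0.12, unadjusted p = 0.0228, adjusted p = 0.246, limma), the smallest p on the higher side. Kif11 and Kif23, motors of the bipolar spindle and of the midzone, stood at 25.1 and 19.1, and 28.9 and 20.6 FPKM, beside 15.5 and 17.4, and 17.6 and 18.7. Tpx2, which seeds microtubules, stood at 84.5 and 66.3 FPKM beside 59.2 and 62.0. These 4 genes were the ones above wild type in both libraries. Prc1, a midzone bundler, stood at 70.5 and 40.0 FPKM beside 53.6 and 56.5, Hmmr at 70.2 and 41.6 beside 52.1 and 56.6, Kif2c at 34.6 and 20.5 beside 30.1 and 30.9, and Kif20a at 45.5 and 31.8 beside 36.8 and 38.6. In each of these 4 the knockout-labelled libraries lay on opposite sides of wild type, and in Kif20a 29.3% of exon bases overlap another gene, mostly Cdc23.

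Nusap1, a gene of a microtubule-binding protein of the spindle, was the mitosis gene below wild type in both libraries. The gene (ENSMUSG00000027306, chr2:119618298-119651244) stood at 20.9 and 18.6 FPKM beside 28.2 and 31.3, from at least 609, 729, 524 and 1023 reads. The wild-type mean was 1.51-fold that of the knockout-labelled libraries (log2 -0.57, SE 0.14, unadjusted p = 0.0143, adjusted p = 0.234, limma). The smallest p that an exact permutation of 4 libraries in 2 pairs allows is 0.33 (two-sided).

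Genes tied to the ubiquitin ligases that end mitosis stood lower in knockout-labelled 2 for Cdc20 and Ube2c. Cdc20, which activates the anaphase-promoting complex, stood at 70.2 and 38.1 FPKM beside 59.6 and 58.3, the widest difference between the knockout-labelled libraries among mitosis genes (1.84-fold). Ube2c, the enzyme that hands it ubiquitin, stood at 36.0 and 29.5 FPKM beside 31.7 and 32.3, and 22.8% of its exon bases overlap other genes. Cdca3, linked to the destruction of the kinase WEE1, stood at 44.3 and 56.9 FPKM beside 55.5 and 54.6, with knockout-labelled 1 as the low library.

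Position on the chromosomes moved with some of the low values of knockout-labelled 2. Over expressed genes of chromosome 7 (mean of at least 5 FPKM) the median difference from the wild-type mean was -0.55 on the log2 scale in knockout-labelled 2 and -0.03 in knockout-labelled 1. The members on that chromosome are Ccne1, Rrm1, Lig1, Mki67, Plk1 and Prc1, and 6 of 6 were below both wild-type libraries in knockout-labelled 2, as were 77.9% of the 869 genes tested there. Plk1 and Prc1 differed from wild type by -0.49 and -0.45 there, near the median of their chromosome, and Rrm1 and Lig1 by -0.69 and -0.69. Mki67 differed by less than the chromosome (-0.11) and Ccne1 by more (-1.73). Chromosome X was also low in knockout-labelled 2, with a median of -0.32 over expressed genes, and 0.07 in knockout-labelled 1. Of its 416 genes tested, 69.95% were below both wild-type libraries in knockout-labelled 2, and its 1 member, Pola1, differed by -0.07. Among the 49 tested members outside chromosome 7, X included, 22 were below both wild-type libraries in knockout-labelled 2 (44.9%, with 41.1% of all genes there). Of these 49, 37 were lower in knockout-labelled 2 than in knockout-labelled 1, with a median difference of -0.32, compared with 0.01 over all genes there. With each member set against the median of its chromosome, knockout-labelled 2 was lower in 43 of 55 and the median difference was -0.29. Chromosome 12, home of Rrm2, had a median of -0.46 in knockout-labelled 1, where Rrm2 stood 0.13 above the wild-type mean. What made whole chromosomes differ was not tested.

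**Figure D4:**
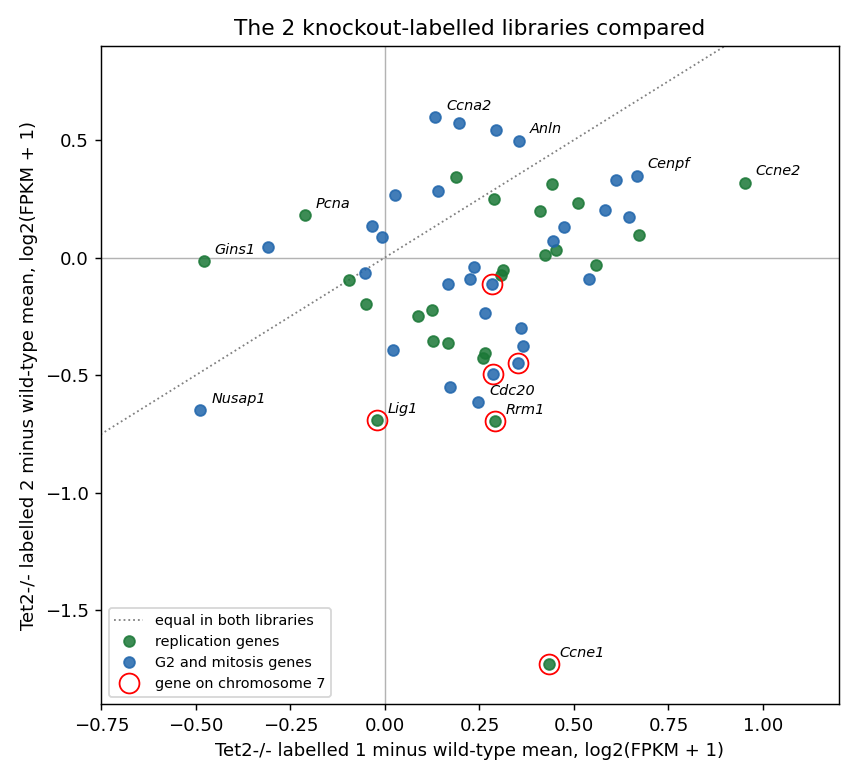
Each point is a tested member, with its log2(FPKM + 1) minus the wild-type mean in knockout-labelled 1 (x axis) and 2 (y axis). The dotted line marks equal values. Of the 55 points, 43 lie below the line, the 6 ringed genes of chromosome 7 all lie below 0 on the y axis, and Ccne1 is farthest down at -1.73.

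The wider cell cycle machinery was read from 9 lists of other genes, 152 in all, of which 151 were tested and none passed at an adjusted p under 0.05 (limma). At an unadjusted p under 0.05, 22 of 151 were higher and 8 lower (background 8.84% and 8.29%), and 58 lay above and 20 below both wild-type libraries (background 29.4% and 24.8%). Condensin and cohesin genes, whose rings fold and hold chromosomes, had the highest median of the 9 lists (0.18 on the log2 scale; 0.03 over all genes), with 7 of 15 at an unadjusted p under 0.05 on the higher side and none on the lower (background 8.84% and 8.29%). Smc2 stood at 65.5 and 51.1 FPKM in knockout-labelled 1 and 2 beside 34.9 and 36.7, Ncapd3 at 8.92 and 10.3 beside 4.89 and 5.18, and Smc3 at 83.7 and 78.6 beside 54.6 and 58.8 (adjusted p = 0.235, 0.217 and 0.232 in that order, limma). The median of the list against the wild-type mean was 0.28 in knockout-labelled 1 and 0.36 in knockout-labelled 2, and 4 and 3 of the 15 genes lay below both wild-type libraries there (background 41.0% and 43.7%).

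Of 22 kinetochore and spindle checkpoint genes, 8 lay above and none below both wild-type libraries (background 29.4% and 24.8%). Hjurp, the chaperone that places CENPA at centromeres, stood at 80.6 and 88.7 FPKM beside 48.6 and 50.6 (log2 0.76, adjusted p = 0.204, limma), Cenpn at 11.3 and 11.4 beside 6.78 and 7.86, and Spc25 at 57.5 and 43.5 beside 34.0 and 39.0. Of 22 genes of spindle motors and cytokinesis, 12 lay above and 1 below (background 29.4% and 24.8%), with Melk, a kinase gene, at 26.7 and 28.7 FPKM beside 16.1 and 18.2, Kif15 at 10.2 and 10.8 beside 6.21 and 6.48, and Kif14 at 9.81 and 8.58 beside 6.17 and 6.16. These named genes were above wild type in both libraries and did not pass the test.

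Of 37 genes of origins, forks and chromatin assembly, 14 lay above and 6 below both wild-type libraries (background 29.4% and 24.8%). The origin subunit genes Orc2 and Orc4 stood at 53.0 and 39.4, and 74.96 and 69.8 FPKM, beside 26.8 and 30.2, and 51.1 and 53.8. Cdc7, the kinase that fires origins, stood at 9.22 and 9.17 FPKM beside 5.21 and 6.06 (adjusted p = 0.234, limma). The list as a whole followed the replication members, with a median of 0.22 in knockout-labelled 1 and -0.05 in knockout-labelled 2. In Orc2 29.8% of exon bases overlap another gene, mostly Nif3l1.

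No regulator upstream of both sets passed the test. Of 18 regulators of the border of G1 and S phase, 7 lay above and 4 below both wild-type libraries (background 29.4% and 24.8%). Rbl1, a brake on E2F, stood at 11.8 and 16.4 FPKM beside 7.76 and 8.45, and the E2F partner genes Tfdp1 and Tfdp2 at 101 and 86.6, and 16.4 and 18.4, beside 74.6 and 75.5, and 10.8 and 10.9. Foxm1, which drives the mitosis genes, stood at 71.5 and 81.2 FPKM beside 61.7 and 62.4, and Mybl2 at 18.5 and 19.8 beside 14.6 and 14.1, while the MuvB subunit gene Lin37 stood at 6.29 and 5.09 beside 8.63 and 9.16. Foxm1 and Mybl2 were thus above wild type also in knockout-labelled 2, where many of the mitosis genes were not. Of 9 checkpoint genes, 4 lay above and 2 below, against the same background. Atr, the sensor kinase of stalled forks, stood at 20.2 and 18.0 FPKM beside 13.1 and 14.5, Wee1, a brake on CDK1, at 9.59 and 7.24 beside 12.2 and 12.8, and Cdc25c, which releases it, at 8.81 and 8.16 beside 12.1 and 11.5.

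Of 15 genes of the anaphase-promoting complex 3 lay above and 4 below both wild-type libraries (background 29.4% and 24.8%), among them Anapc11 (23.4 and 25.7 beside 32.2 and 32.0 FPKM), Fzr1, its activator in G1 (33.1 and 32.4 beside 43.4 and 40.3 FPKM), and Cdc26 (8.02 and 10.02 beside 6.38 and 7.02 FPKM). Of 6 tested inhibitors of cyclin-dependent kinases, Cdkn2b alone was separated from wild type (background 54.2%), at 9.38 and 8.82 FPKM beside 35.8 and 38.4 (log2 -1.92, adjusted p = 0.0907, limma). Cdkn2a, which encodes a brake on CDK4 and CDK6, stood at 53.9 and 17.6 FPKM beside 40.2 and 44.2, so that knockout-labelled 2 was the lowest library. Cdkn1a stood at 211.2 and 165.2 FPKM beside 211.1 and 196.7.

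**Figure D5:**
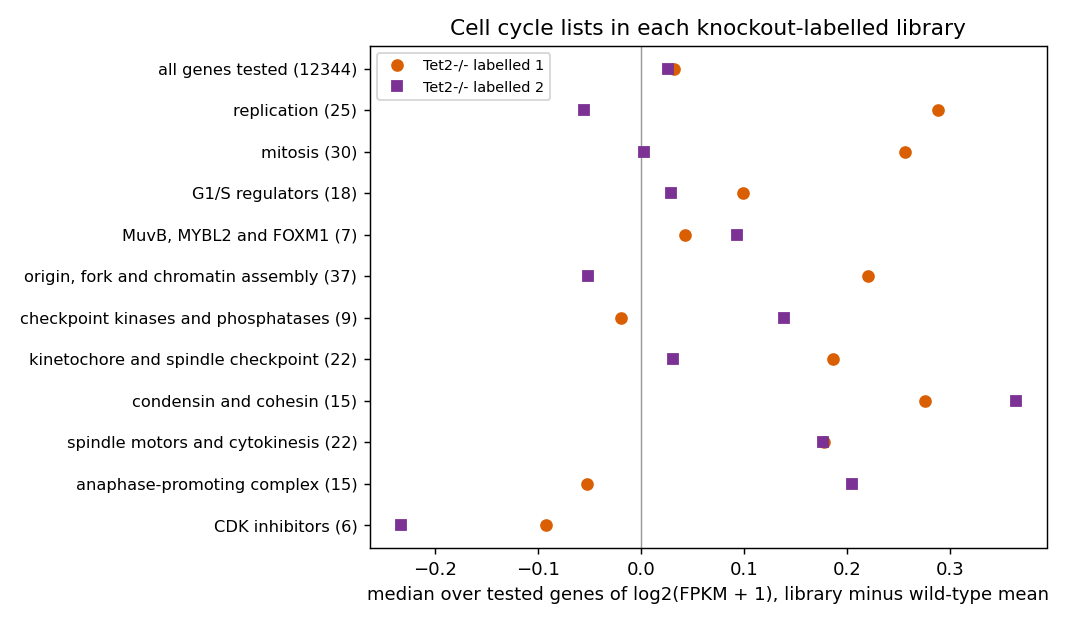
For each list (number of tested genes in brackets) the median of log2(FPKM + 1) minus the wild-type mean is plotted (x axis) for knockout-labelled 1 (circles) and 2 (squares). Replication and mitosis genes stand at 0.29 and 0.26 in knockout-labelled 1 and near 0 in knockout-labelled 2, and condensin and cohesin genes at 0.28 and 0.36.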

How the data were processed

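The authors deposited 1 table of FPKM for 41029 genes in 4 libraries; per the labels, TopHat2 2.0.12, Bowtie2 2.2.3, HTSeq 0.6.1 and build mm10 are in the submitters' processing notes. How gene lengths were set is not given in the sources used here. FPKM are scaled to total reads, so abundant genes that differ shift all others. Symbols came from GENCODE M21 (GRCm38) and matched 40456 identifiers. Totals and whole reads per gene were worked out from the FPKM as exact quotients, to within 1e-06 of a read or a bound growing with the count, for all 25309 genes above 0; reads are lower bounds where counts share a factor.

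limma 3.58.1 in R 4.3.3 was run on log2(FPKM + 1) for the 12344 genes whose mean reached 1 FPKM, with a mean-variance trend, two-sided, Benjamini-Hochberg adjusted, threshold 0.05. The fit was tested on simulated data in which all 4 libraries had the spread of the wild-type replicates. The knockout-labelled libraries lay wider apart (median absolute difference 0.35, compared with 0.08 in wild type), so that test does not cover their spread. Wild type is subtracted in log2 differences, and folds are ratios of FPKM. Alternatives were other pseudocounts, filters, scalings and variance models, a replicate block, voom on the reads, and each library left out. Members and lists were chosen with earlier results of these data known. Members given by library with tests were the 5 most abundant, the 5 with the smallest p and the 3 with the widest difference between knockout-labelled libraries per group, and up to 3 per other list by p; other members are given by their values. Roles, overlap counts and chromosome medians were added after the data were seen.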

Additional observations from a re-analysis of the deposited data

How the results depend on the processing

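No alternative that kept all 4 libraries called any replication or mitosis member. The number of all genes past the threshold, 2 in the fit as reported, was 1 with a pseudocount of 0.1, 1 with 0.01, 0 with the replicate block and 0 with voom, and ran from 0 to 7415 when a library was left out. Replication members called then ran from 0 to 16 and mitosis members from 0 to 18, with calls only where 1 knockout-labelled library was left and was assumed to vary like wild type. In those fits members above both wild-type libraries numbered 21 to 43 and members below both 5 to 28, counts that cannot fall when a library is left out. The replication median ran from -0.055 to 0.29 and the mitosis median from 0.0028 to 0.26. The same-numbered libraries did not deviate together (correlation 0.00612 over 12344 genes), so the replicate block has no support as a pairing. Of 22 members named by rule, 196 of 198 values with all libraries kept their direction; with quantile normalization Rrm2 turned to 0.0039 and Pcna to 0.021. With a library left out 11 of 88 values turned: Rrm2 ran from -0.36 to 0.13, Mcm7 from -0.36 to 0.17, Pcna from -0.21 to 0.18, Rrm1 from -0.69 to 0.29, Ccne1 from -1.73 to 0.43, Mcm5 from -0.43 to 0.26, Cdk1 from -0.39 to 0.020, Cdc20 from -0.62 to 0.25, Prc1 from -0.45 to 0.35 and Plk1 from -0.49 to 0.29. The medians near 0 of the replication genes changed sign with the filter and with quantile normalization (0.05 and 0.02) and were 0.09 after chromosome medians were subtracted.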
